A study of Capra hircus with 3 samples.

Results

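CXCL14, CCL11 and CXCL10 are 3 of the 16739 genes measured in single cells of fetal goat skin, and they were chosen by name, with earlier results of these data known, to describe which cells were their source at each stage. Their differences between stages and clusters are therefore given as descriptions. The cells came from dorsal skin of Northern Shaanxi White Cashmere goat fetuses at embryonic day 60 (E60, hair follicle induction), day 90 (E90, organogenesis) and day 120 (E120, cytodifferentiation), with 1 library a stage and no treatment or genotype that differed between them. Cells of several fetuses were pooled before barcoding, so no value can be given per fetus and no test between stages was possible. At E60 and E90 whole skin was digested with collagenase, whereas at E120 follicles were picked out of digested skin and then dissociated further, so stage and tissue preparation cannot be told apart.

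Chemokines are small secreted proteins that steer cells through G protein-coupled receptors and are grouped by the spacing of their first cysteines into CC and CXC types. CXCL14 is a homeostatic CXC chemokine made by normal skin epithelium and fibroblasts. CCL11, also called eotaxin, is a CC chemokine best known for attracting eosinophils through the receptor CCR3, and is often made by fibroblasts. CXCL10 is induced by interferons and by NF-kB signalling, and attracts T cells and NK cells through CXCR3. In mouse embryonic skin CXCL10 has been described as a target of ectodysplasin, the TNF-family signal that acts through NF-kB in hair placodes.

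The libraries held 6849, 6931 and 6896 cells at E60, E90 and E120, with 65049552, 30277663 and 93403291 UMIs (unique molecular identifiers, each standing for 1 captured mRNA molecule) and a median of 8579, 3714 and 13064 UMIs a cell. The E90 library was the shallowest, and its median mitochondrial share of 11.1% stood above 4.52% and 5.26% in E60 and E120. Pairs of libraries shared 9 to 13 cell barcodes. Levels are given as CPM, a gene's UMIs per 1000000 UMIs of all genes summed over a library or a group of cells, with 95% exact Poisson intervals, and shares carry 95% exact binomial intervals. These intervals cover counting error only. A UMI marks 1 molecule whatever its length, so levels of different genes are set side by side without a length correction. In a summed library, fewer cells of a type and less RNA per cell cannot be told apart.

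CXCL14 was by far the most abundant of the 3 genes, and of every chemokine and receptor in the table, at each stage. It reached 1347 CPM at E60 (1338 to 1356), 3175 CPM at E90 (3155 to 3195) and 748 CPM at E120 (742 to 753). E90 was thus the highest stage, 2.36-fold above E60 (2.34 to 2.38), and E120 was 4.25-fold below E90 (4.21 to 4.29). The intervals did not overlap. The libraries were also scaled by median of ratios instead of by their totals. Among genes with at least 10 CPM in a library, this shifted the median log2 ratio by -0.49 (E90 over E60) and 0.45 (E120 over E90). The CXCL14 log2 ratios, 1.24 and -2.09, then became 0.72 and -1.61, with the same order of stages.

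At least 1 CXCL14 UMI was found in 83.3% of cells at E60 (82.4 to 84.2), 99.6% at E90 (99.4 to 99.7) and 58.0% at E120 (56.8 to 59.2). Thinned to 2000 UMIs a cell, the shares were 61.6%, 96.6% and 32.1%, in the same order. The E90 share included cell types that are not known as CXCL14 sources. In the pooled clusters described further on it covered all 90 endothelial-like cells, 98.5% of 66 mast-like cells and, in clusters of E90 alone, all 100 cells of a cluster led by haemoglobin genes, at levels of 1657, 2469 and 2263 CPM, with median depths of 3585, 3338 and 3452 UMIs. At E60 and E120 the same measure was lower, with 44.6% of 139 endothelial-like cells at 102 CPM (median depth 16016) and 30.2% of 364 endothelial-like cells at 165 CPM (median depth 6404). An E90 share or level near that of these cells is therefore not taken to mark a source. Some E90 clusters stood lower, down to 915 CPM in the one led by KRT10. Whether such a level is background, and how much of the E90 library total it would make up, was not tested.

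**Figure D1:**
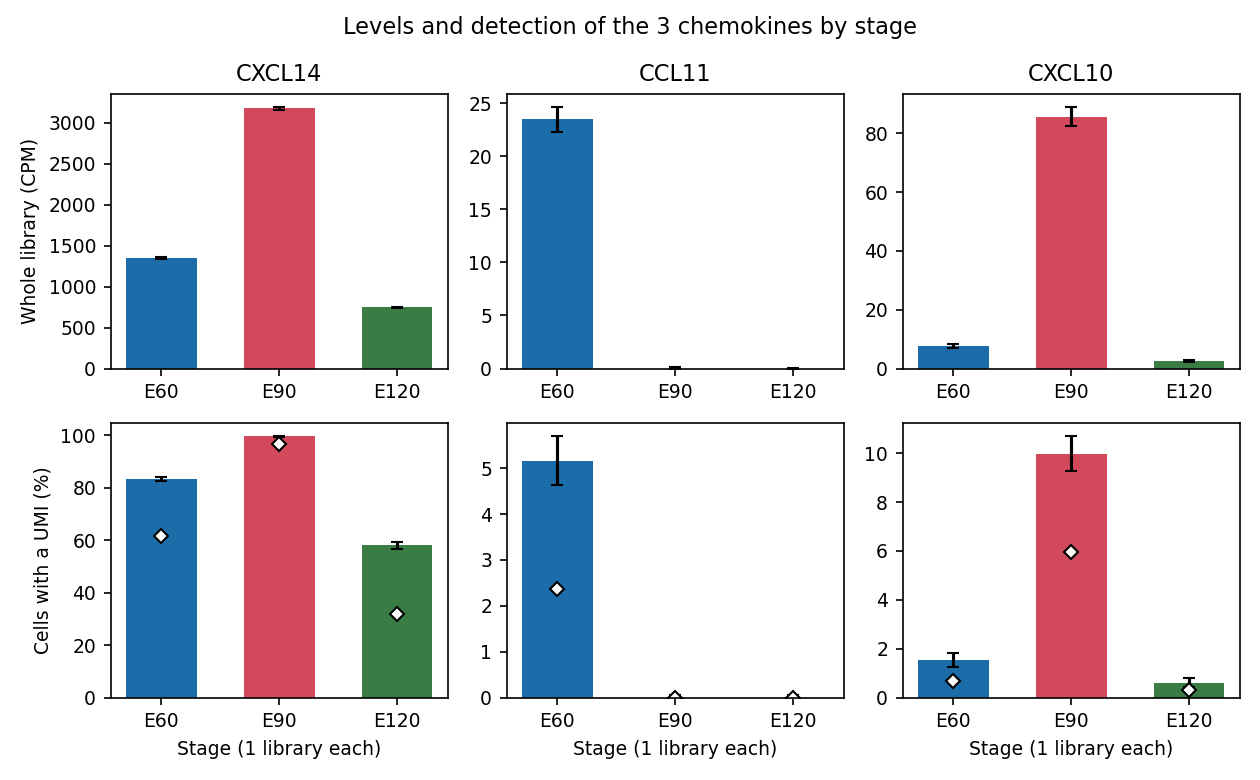
Upper row: level of each gene in each library in CPM, as bars with 95% exact Poisson intervals. Lower row: percent of cells with at least 1 UMI, with 95% exact binomial intervals, and the share after thinning each cell to 2000 UMIs (white diamonds). CXCL14 and CXCL10 were highest at E90 and CCL11 was detected at E60 only, with 1 library per stage.

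CCL11 was detected at E60 only. That library held 1529 CCL11 UMIs, or 23.5 CPM (22.3 to 24.7), in 353 cells (5.15%, 4.64 to 5.70), and the E90 and E120 libraries listed it at 0. Set against 3 UMIs in the later library, E60 was at least 237-fold above E90 and at least 732-fold above E120. The deposited table may hide a trace. Only 6 genes were in exactly 1 cell of E90 and 66 in 2 cells, against 432 in 3 cells, so a gene seen in fewer than 3 cells of a library may have been set to 0. Whether reads of CCL11 are shared with related CC chemokines such as CCL2 and CCL8, at 1.01 and 41.1 CPM at E60, was not tested. In the E60 cluster highest in CCL8 (2902 CPM) CCL11 gave 0 UMIs. In the E60 cluster highest in CCL11, CCL8 stood at 3.88 CPM and CCL2 at 1.29 CPM.

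CXCL10 was found at all 3 stages but in few cells. It stood at 7.59 CPM at E60 (6.94 to 8.29), 85.7 CPM at E90 (82.5 to 89.1) and 2.61 CPM at E120 (2.29 to 2.96), from 494, 2596 and 244 UMIs. E90 was 11.3-fold above E60 (10.3 to 12.5), and E120 was 32.8-fold below E90 (28.8 to 37.6). Cells with a UMI were 105 (1.53%, 1.26 to 1.85), 690 (9.96%, 9.26 to 10.7) and 41 (0.595%, 0.427 to 0.806). The E90 share was close to the 9 of 100 cells in the haemoglobin-led cluster. That cluster stood at 26.0 CPM (13.0 to 46.6) on 11 UMIs, with a median depth of 3452 UMIs against 3714 in the library. An E90 share or level of that size is therefore not taken to mark a source. Whether it is background was not tested. Few cells carried most of the CXCL10 UMIs. The 14, 48 and 8 cells with at least 10 CXCL10 UMIs held 65.0%, 62.0% and 69.7% of the gene's UMIs at E60, E90 and E120, whereas in CXCL14 the top 1% of cells (68, 69 and 69 cells) held 8.27%, 8.20% and 15.5%.

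To find the source cells, cells were clustered without any chemokine ligand or receptor gene, and clusters were called dermal-like, epithelial-like and so on from marker genes. In clusters of all cells together, E60 was 78.9% dermal-like, E90 28.3% epithelial-like and 9.09% dermal-like with 59.4% in unnamed clusters, and E120 63.7% epithelial-like and 3.19% dermal-like. The follicle dissection at E120 can set the last shares. Only 3 epithelial-like cells were found at E60, too few to give a level. Each class was made of different clusters at each stage.

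The main source of CXCL14 followed this makeup. Dermal-like cells held 93.7% of its UMIs at E60 (93.6 to 93.9), and epithelial-like cells held 33.5% at E90 (33.2 to 33.8) and 83.6% at E120 (83.3 to 83.9). The E90 share was 16.1% at a coarser clustering and the E120 share 53.1% at a finer one. At E90 unnamed clusters, almost all of them 1 cluster of 4110 cells led by mitochondrial genes, held another 51.1%, at 3025 CPM. Within dermal-like cells CXCL14 stood at 1620.2 CPM at E60 (1609 to 1631), 3609.6 at E90 (3548 to 3672) and 2097 at E120 (2023 to 2173), from 5407, 630 and 220 cells. These lay mainly in clusters led by CHN1 and SOX4 and by DKK1 and ISM1 at E60, by BMP3 and COL6A3 at E90 and by FGF7 and APOD at E120. Per UMI of this class, E90 was thus 2.23-fold above E60 (2.19 to 2.27), and E120 1.72-fold below E90 (1.65 to 1.79). The endothelial-like, mast-like and haemoglobin-led cells of E90 stood at 1657 to 2469 CPM, as given above. What part of these ratios a background of that size would make up was not tested. In epithelial-like cells the level was 3401 CPM at E90 (3364 to 3438) and 805 CPM at E120 (799 to 812), 4.22-fold lower (4.17 to 4.28). The E90 cells lay mainly in a cluster led by KRT85 and LHX2, and at E120 clusters led by SHH and DCN (2913 CPM) and by SPP1 and KLK7 (6158 CPM) held 53.9% and 22.6% of the stage's CXCL14 UMIs, with the other epithelial-like clusters at 19.5 to 109 CPM. With every cell weighing the same, the log2 ratio of E120 over E90 was -1.06 in place of -2.08.

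Clustering each library on its own separated more groups, and the levels by cluster below come from it. It gave 24, 23 and 24 clusters of at least 30 cells at E60, E90 and E120. Levels of CXCL14 ranged 244-fold between these clusters at E60 (61.2 to 14895 CPM), 9.65-fold at E90 (915 to 8826 CPM) and 526-fold at E120 (17.3 to 9079.6 CPM), and no cluster was at 0.

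At E60 the highest CXCL14 level was in a dermal-like cluster of 35 cells led by SMOC1, BMP7, BMP4 and SOX18, with 14895 CPM (14421 to 15381) and a median of 92.0 UMIs a cell. BMP4 and BMP7 are bone morphogenetic proteins, and SOX18 is a transcription factor of dermal condensates in mouse skin. All 12 listed keratinocyte markers were at 0 in it, its summed fibroblast markers were 6510.1 CPM against 13310.2 in the other E60 cells, and its summed dermal condensate or papilla markers 3941 against 4436. The next clusters were led by ISM1 and DKK1 (361 cells, 6184 CPM), by the replication gene MCM5 with ISM1 and DKK1 (304 cells, 3971 CPM) and by IGFBP5, F13A1 and DKK1 (625 cells, 3136 CPM). DKK1 is a secreted WNT inhibitor. None of the intervals of these 4 clusters overlapped. At the low end stood endothelial-like cells (113 CPM) and a dermal-like cluster led by SMOC2 and SERPINF1 (511 cells, 61.2 CPM), so dermal-like clusters spanned the whole range.

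At E90 a cluster of 114 cells led by TAC1, SEMA3E and PIK3C2G stood highest, at 8826 CPM (8619 to 9036) with a median of 49.0 UMIs a cell. It stayed unnamed by the marker rule, but its closest class was epithelial: its summed keratinocyte markers were 9029 CPM against 5211 in the other E90 cells, and its summed fibroblast markers 864 against 4143. Second was an unnamed cluster of 194 cells led by BMP3, SPARCL1, BMP4 and IGFBP3 with SOX18 among its leading genes, at 7296 CPM (7122 to 7473). There keratinocyte markers were low (1796 CPM against 5419) and dermal condensate or papilla markers were 1379.9 CPM against 1097. Next was a dermal-like cluster led by SPON1 and COL28A1 (171 cells, 4816 CPM), followed by an epithelial-like one led by AK8, IGFBP6, CHGA and LHX2 (832 cells, 4311 CPM). These 4 stood apart from each other and from the rest, while from the seventh place on most neighbours in the order overlapped, among them the mast-like, Schwann-like and endothelial-like clusters. The lowest levels at E90 were in the keratinising cells led by KRT10 and KRT1 (915 CPM).

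At E120 the highest level was in epithelial-like cells led by CST6, KRT10, KLK7 and KRT17 (265 cells, 9079.6 CPM, 8924 to 9238). At a finer clustering 137 of these cells formed a cluster of their own at 14147 CPM. A dermal-like cluster of 62 cells led by COL1A2, COL1A1, COL11A1 and ACTA2, the last a smooth muscle actin of the dermal sheath, followed at 6636 CPM (6366 to 6915). Next came a cluster of 303 cells led by SHH, DCN and TCN1 at 4472 CPM (4401 to 4544); SHH is the hedgehog ligand made by hair matrix cells. The cells led by FGF7, RSPO2 and RSPO3, secreted factors of the dermal papilla, stood lower at 699 CPM (651 to 749). Keratinising clusters of hair shaft and inner root sheath, led by KRT35, KRT85, KRT84, KRT71 or KRT73, ranged from 17.3 to 58.9 CPM, below every named non-epithelial cluster of the stage with at least 30 cells. A further cluster led by haemoglobin HBAI and by KRT84 stood at 467 CPM.

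**Figure D2:**
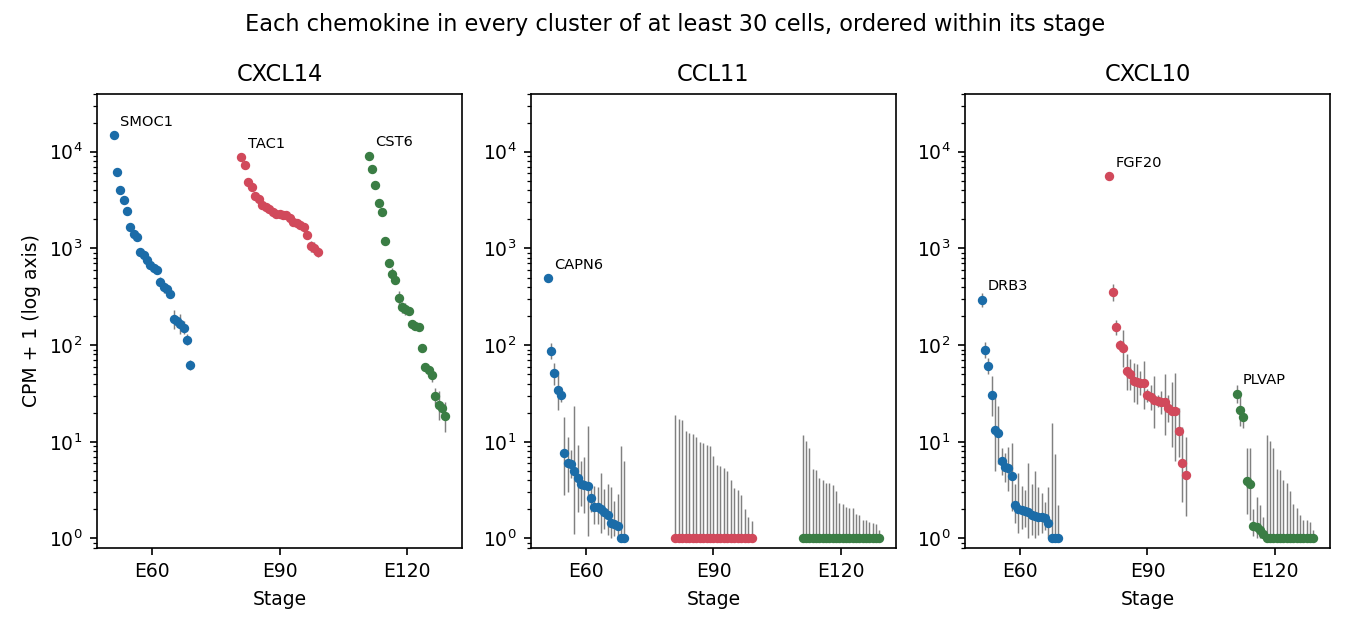
Level (CPM + 1, log axis) of each gene in every cluster of at least 30 cells, ordered from high to low within its stage, with 95% exact Poisson intervals. Each dot is 1 cluster, and the highest is marked with its first leading gene. CXCL14 spans a narrower range at E90 than at E60 or E120, and CXCL10 at E90 has 1 cluster at 5596 CPM with the next at 350.2.

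The genes whose pattern over clusters was most like that of CXCL14 were read within each stage. At E60, over 24 clusters, they were APCDD1, a membrane WNT inhibitor (Pearson r of log2 values 0.91), ROBO2 and PTH1R (0.87), and SEMA3D and PTCH1, the hedgehog receptor (0.86). At E90, over 23 clusters, ISM1 (0.81) and WNT5A (0.79) came first. At E120, over 24 clusters, MXRA5 (0.90) and ZNF395 (0.87) came first. Over the 71 clusters of all stages INHBB (0.82), ISM1 (0.79), GLI1 (0.78), GLI2 and IRX1 (0.77) were nearest, GLI1 and GLI2 being transcription factors of hedgehog signalling. Clusters share libraries and depth, so these values only describe the data.

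CCL11 at E60 was a dermal-like gene, and a narrow one. Dermal-like cells held 97.1% of its UMIs (96.2 to 97.9), and within them it stood at 29.3 CPM (27.8 to 30.8). A single cluster of 287 cells held 1134 of the 1529 UMIs, at 489 CPM (461 to 518), with a UMI in 66.6% of its cells. It was led by CAPN6, SFRP1, DLK1 and CYTL1. SFRP1 is a secreted WNT antagonist, DLK1 a NOTCH-related protein of immature mesenchyme, and CYTL1 a secreted protein of cartilage. Lower levels were found in a dividing dermal-like cluster led by NMU and CKAP2 (86.0 CPM, 70.0 to 104) and in 3 further clusters between 29.8 and 50.0 CPM, whose intervals overlapped with their neighbours. One of these, led by ASPN and CYTL1 at 50.0 CPM, consisted of called doublets to 92.7%, and another was Schwann- or glial-like, with 11 of its 19 UMIs in 1 cell. The other 19 clusters were under 10 CPM.

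SFRP1 is a leading gene of that cluster, which held 1134 of the 1529 CCL11 UMIs, so its values in part restate the cluster. Cells with an SFRP1 UMI outside the cluster were not looked at apart. The 931 E60 cells with an SFRP1 UMI (13.6% of cells) held 90.8% of CCL11 UMIs (89.2 to 92.2) and stood at 154 CPM, against 2.52 CPM in cells without one, at like median depths of 8460.0 and 8597 UMIs. TNMD, a tendon marker, divided the cells less: those with a TNMD UMI stood at 26.5 CPM (23.7 to 29.5) and those without at 22.8 (21.5 to 24.1). In the main CCL11 cluster the summed tendon or cartilage markers were 2208 CPM against 524 in other E60 cells, and the fibroblast markers 21368 against 12985. The tendon or cartilage sum includes 876 CPM of CYTL1, a leading gene of the cluster, and 2 of the 5 such markers with at least 10 CPM were at least 2-fold higher. Endothelial and myeloid markers were low in this cluster, at 9.49 and 5.61 CPM summed. The E60 cluster led by COL2A1, TNMD and THBS4 had CCL11 at 3.26 CPM (0.888 to 8.35), from 4 UMIs. Over the 24 clusters of E60, BMP5 (r = 0.90), SFRP1 (0.82), CYTL1, ANGPTL1 and DPYSL3 (0.81) were most like CCL11.

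CCL11 and CXCL14 did not mark the same dermal-like cells. In the main CCL11 cluster CXCL14 stood at 619.8 CPM (588 to 653), which is thirteenth of 24 clusters. In the 35-cell cluster highest in CXCL14, CCL11 stood at 3.99 CPM. Over all E60 cells, those with a CCL11 UMI had 861 CPM of CXCL14 (829.8 to 894), against 1372 CPM (1363 to 1382) in those without. The later dermal-like cells gave no CCL11 UMI in 630 cells at E90 and 220 at E120.

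CXCL10 at E90 came mainly from 38 cells. They formed a cluster led by FGF20, TNFRSF11B, SMOC2, ELOVL6, CDH2 and SHH, which held 1317 of the 2596 UMIs (50.7%) at 5596 CPM (5298 to 5906). A CXCL10 UMI was found in 37 of the 38 cells, with a median of 26.0 and a highest value of 157. Of the 48 E90 cells with at least 10 UMIs, 33 lay there. Leaving out the highest cell gave 5325 CPM, and other resolutions gave clusters of 37 and 38 of the same cells. The rest of the library was far lower. The mast-like cells followed at 350.2 CPM, but with 68 of their 108 UMIs in 1 cell, and at 132 CPM without it. The next 2 clusters were epithelial-like, led by SPP1, EHF and PAEP (152 CPM, 126 to 181) and by AK8 and LHX2 (100.1 CPM, 90.0 to 111), and the myeloid-like and endothelial-like clusters stood at 93.3 CPM (57.8 to 143) and 53.1 CPM (33.3 to 80.3), the former at 22.7 CPM without 1 cell. The lowest E90 cluster, dermal-like and led by SPON1, stood at 3.5 CPM.

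FGF20 is a fibroblast growth factor of hair placodes that acts on the dermis beneath, SHH is another placode signal, and TNFRSF11B, or osteoprotegerin, is a secreted decoy receptor of the TNF family. FGF20 stood at 467 CPM in the 38 cells (384 to 563) and at 1.70 in the other E90 cells, TNFRSF11B at 353 against 2.70, SMOC2 at 782 against 50.1, SHH at 217 against 16.9, and LEF1, a transcription factor of WNT signalling, at 472 against 91.1. Epithelial genes were mixed. KRT5 stood at 251 CPM against 347, KRT14 at 387 against 762 and KRT17 at 2022 against 3343, while KRT8 (136 against 58.3), EPCAM (174 against 61.0) and TP63 (29.7 against 10.0, from 7 UMIs) were at least 2-fold higher. Of the 7 outer root sheath or placode progenitor markers with at least 10 CPM, 1 was at least 2-fold higher and 2 were lower, with a median log2 ratio of -0.72; SOX9 stood at 63.7 CPM against 330.1, KRT15 at 46.7 against 183 and LHX2 at 106 against 145. Summed keratinocyte markers were 3450.1 against 5324 CPM and summed fibroblast markers 4712 against 4053, and the cluster stayed unnamed, with fibroblasts as its closest class. Clustering all cells together placed it among epithelial-like cells, which then held 73.5% of E90 CXCL10 UMIs (71.7 to 75.1); with the chemokine genes kept, at other resolutions or in the library alone, the share was 11.2 to 31.0%. EDAR, the ectodysplasin receptor, gave 2 UMIs in the cluster (8.50 CPM, 1.03 to 30.7) and 0.533 CPM in the other cells, too few to compare.

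FGF20, the first leading gene of the cluster, also marked cells high in CXCL10. The 80 E90 cells with an FGF20 UMI (1.15% of cells) held 48.6% of CXCL10 UMIs (46.7 to 50.6) and stood at 3134 CPM (2964 to 3312), against 44.7 CPM (42.3 to 47.1) in the rest, at median depths of 4180.5 and 3710.0 UMIs. Of these 80 cells 30 lay in the FGF20-led cluster, and the other 50 stood at 164 CPM. The 419 cells with an SHH UMI held 42.0% and stood at 551 CPM (518 to 584) against 53.2. SHH is also a leading gene of the cluster, found in 65.8% of its cells, so these values in part restate it. Cells with an SHH UMI outside the cluster were not looked at apart. CXCL14 was low in the cluster, at 1054 CPM (927 to 1193), with 2 of 23 clusters lower, so the cells highest in CXCL10 were not those highest in CXCL14.

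Among genes known to be induced by NF-kB, most of those that reached 10 CPM were higher in these 38 cells. Of 14 in the table, 7 reached 10 CPM in the cluster or in the rest, and 6 of these were at least 2-fold higher, with a median log2 ratio of 2.58; over all genes tested 13.7% were higher and 11.2% lower by that fold, with a median of 0.15. CCL20, a CC chemokine of epithelium, stood at 897 CPM (779.6 to 1026) against 18.1, and NFKBIA, the inhibitor that NF-kB itself induces, at 412 (334 to 503) against 54.7. TNFAIP3, BIRC3 and NFKB1 each gave 9 UMIs (38.2 CPM, 17.5 to 72.6) against 3.89, 5.56 and 15.8, and NFKB2 42.5 against 10.5. CXCL8 was the exception, at 12.7 CPM against 33.4. All of these except CCL20 and CXCL8 were open to the clustering, so the counts are a description. TNFAIP3 and BIRC3 reached 10 CPM only in the 38 cells, so they could be counted only as higher. Of the 14 genes, 4 gave 0 UMIs in the cluster and could be counted only if the other cells reached 10 CPM. Genes under 50 CPM in these lists were named after their values were seen.

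Interferon-induced genes were less uniform. Of the 26 measured, 12 reached 10 CPM and 6 were at least 2-fold higher, with a median log2 ratio of 1.04, each from 3 to 6 UMIs. IRF1 stood at 25.5 CPM (9.36 to 55.5) against 2.73 and PSMB9 at 21.2 (6.90 to 49.6) against 6.92. Both reached 10 CPM only in the cluster, so they could be counted only as higher, and 9 of the 26 gave 0 UMIs there. IFI6 (63.7 against 84.5) and IFIT5 (17.0 against 17.9) lay within their counting error of the rest, and MX1 and IFIT1 gave 0 UMIs. CXCL9 and CXCL11, the neighbours of CXCL10 on either side in the RefSeq annotation of assembly ARS1.2 and, like it, ligands of CXCR3, each gave 1 UMI. Of 13 immediate early and heat shock genes, which rise in stressed or dissociated cells, none was 2-fold higher and 2 were 2-fold lower, and their summed level was 13384 CPM against 15857.

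**Figure D3:**
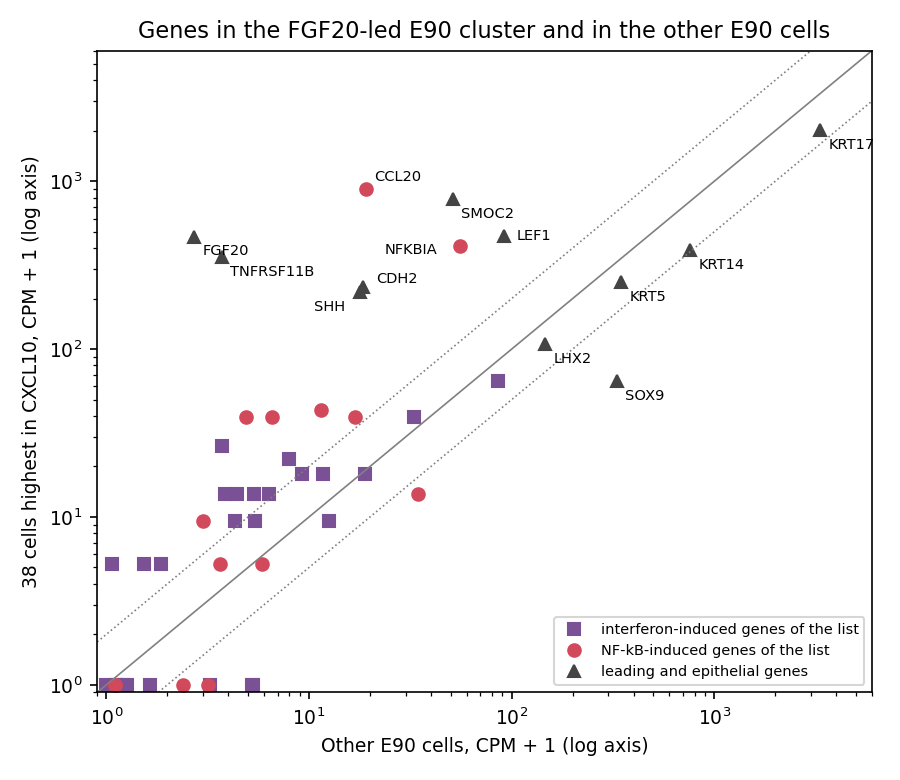
Level (CPM + 1, log axes) in the 38 E90 cells led by FGF20 against the other E90 cells, 1 point a gene. The solid line marks equal levels and the dotted lines a 2-fold difference; 6 NF-kB-induced genes that reach 10 CPM lie above the upper dotted line, and KRT5, KRT14 and KRT17 on or below the solid line.

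Over the 23 E90 clusters the genes most like CXCL10 were NFKBIA (r = 0.78), FGF20 (0.77), FKBP11 (0.73), PSME1 (0.71) and MMP1 (0.70). All 5 had their highest E90 level in the FGF20-led cluster, so these values rest in part on it.

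At E60 and E120 CXCL10 lay elsewhere. The highest E60 cluster was myeloid-like, with 49 cells led by the MHC class II gene DRB3 and LCP1, at 294 CPM (246 to 347), and at 224 CPM without its highest cell; at a finer clustering it split into 27 cells with no CXCL10 UMI and 22 cells at 669 CPM, both under the 30 cells used for levels by cluster. Next came the cells led by COL2A1 and TNMD (88.8 CPM, 72.9 to 107), with 51 of their 109 UMIs in 1 cell, and endothelial-like cells (60.0 CPM, 49.6 to 71.8). At E120, among clusters of at least 30 cells, endothelial-like cells had 30.5 CPM (364 cells, 24.3 to 37.7), on 85 UMIs in 16 cells, and their interval overlapped that of the next cluster. A cluster of 28 cells led by SHH and VCAN stood at 131 CPM, and a finer clustering put other cells highest, at 53.7 CPM. The SHH-led cluster stood at 16.9 CPM (12.8 to 21.8), and the 20.4 CPM of the cells led by CST6 came from 1 cell with 28 of 29 UMIs. The 621 E120 cells with an SHH UMI (9.01% of cells) held 63.5% of CXCL10 UMIs (57.1 to 69.6), at 18.0 CPM (15.3 to 21.0) against 1.05. These values in part restate the SHH-led clusters. In epithelial-like cells CXCL10 was 202 CPM at E90 (193 to 211) and 2.08 at E120 (1.76 to 2.44), 96.8-fold lower (82.0 to 115), a figure that includes the FGF20-led cells at E90. Its log2 ratio of -6.04 was -4.32 and -5.08 at a coarser and a finer clustering, -5.04 with chemokine genes kept and -4.13 with a pseudocount of 10 CPM. In dermal-like cells it was 4.0, 12.9 and 2.05 CPM. The E90 value lay under the 26.0 CPM of the haemoglobin-led E90 cluster, and was 5.77 CPM without 1 cell with 26 UMIs. The E120 value came from 3 UMIs.

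The other chemokines of the table gave a mixed picture. Of 17 listed CXC ligands 7 were in the table, of 26 CC, XC and CX3C ligands 11, and of 23 receptors 9. Between E60 and E90, 3 of the 4 CXC ligands with at least 10 CPM in either library were at least 2-fold higher (CXCL8, CXCL10 and CXCL14) and 0 lower, where 21.3% of all such genes were higher and 8.08% lower. Of the 4 CC ligands, CCL20 was higher and CCL8, CCL11 and CCL21 were lower. Between E90 and E120 all 4 CXC ligands, CXCL8, CXCL10, CXCL12 and CXCL14, were at least 2-fold lower, where 9.99% of such genes were higher and 24.2% lower. CXCL10, CXCL14 and CCL11 are in these counts and were chosen with earlier results of these data known, so the counts only describe. Of the other CXC ligands, CXCL8 was higher at E90 than at E60 and CXCL12 was not, and both were lower at E120 than at E90.

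CXCL12, the ligand of CXCR4, stood at 77.7, 39.3 and 6.37 CPM at E60, E90 and E120, and its highest cluster was the papilla-like one of E120 (287 CPM). CCL21, which guides dendritic cells into lymphatics, stood at 145, 4.99 and 0.782 CPM. CCL8 stood at 41.1, 6.64 and 0.964 CPM, with 2902 CPM in the myeloid-like cells of E60 led by SPP1 and CD163. CCL20 stood at 2.75, 24.9 and 29.7 CPM, and like CXCL10 it was highest in the FGF20-led cells. CXCL8, a neutrophil attractant, stood at 9.33, 33.2 and 7.04 CPM and reached 2724 CPM in the myeloid-like cells of E90.

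**Figure D4:**
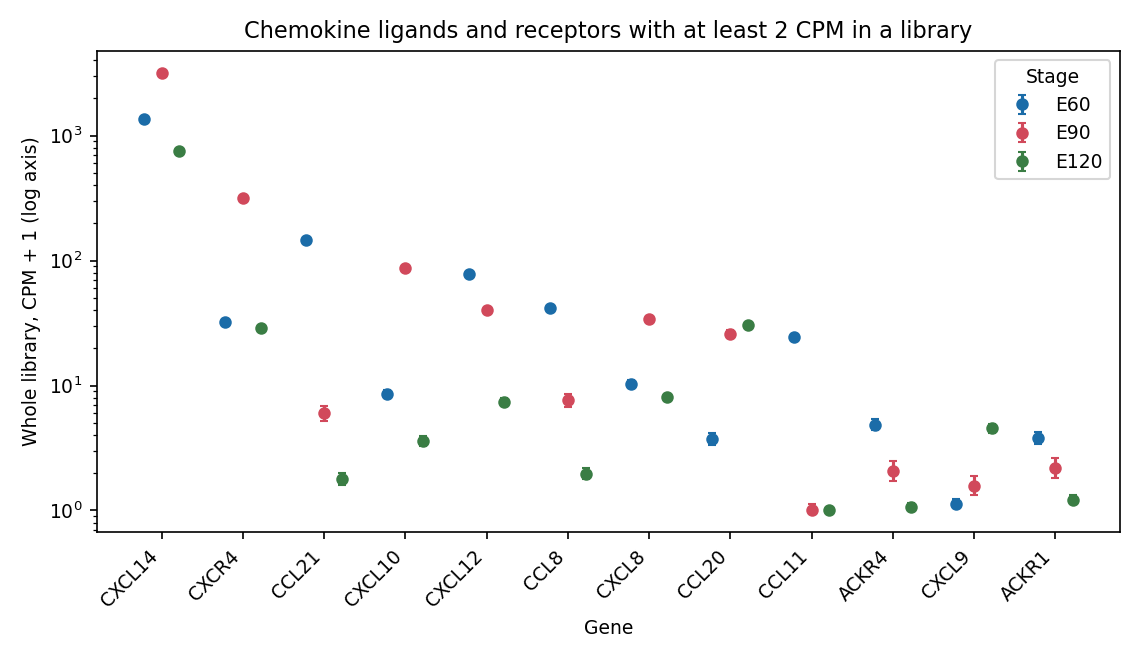
Level (CPM + 1, log axis) of the 12 chemokine ligands and receptors with at least 2 CPM in a library, by stage, with 95% exact Poisson intervals and 1 library per stage. CXCL14 is highest at each stage, CXCL8, CXCL10, CXCL14 and CXCR4 peak at E90, and CCL8, CCL11, CCL21 and CXCL12 are highest at E60.

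Among receptors, CXCR3 gave 0.0615 CPM at E60 and was listed at 0 at E90 and E120. CCR3 was looked for but not found under that symbol among the genes measured. CXCR4, to which CXCL14 has been reported to bind, had the highest level of the receptors in the table, at 31.4, 319 and 27.8 CPM, and the scavenger receptor ACKR3 stayed at 0.107 to 1.09 CPM. CXCR4 was highest in the E90 cells led by BMP3 and SOX18 (1368 CPM, 1293 to 1446, against 286 in the other E90 cells), which were second highest in CXCL14. In the E60 cells led by SMOC1 and SOX18, highest in CXCL14, it stood at 395 CPM (321 to 481) against 30.0. Both genes were thus high in those 2 clusters. In the E90 cells led by TAC1, highest in CXCL14 at that stage, CXCR4 had a log2 ratio of -0.14 over the other E90 cells. In the E120 cells led by CST6, highest in CXCL14 at E120, its log2 ratio over the other cells was 1.85. Over all E60 cells CXCL14 was lower in cells with a CXCR4 UMI, at 1185 CPM, than in the rest, at 1361. At E90, where 60.0% of cells had a CXCR4 UMI, the values were 3411 and 2796 CPM, and at E120 1248 and 689 CPM.

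DPP4 is a membrane protease that trims the ends of chemokines, CXCL10 and CCL11 among them. It stood at 15.8, 8.09 and 24.0 CPM and was highest in the SHH-led cells of E120 (129 CPM), which were high in CXCL14 too. At E120 the 1142 cells with a DPP4 UMI held 44.3% of CXCL14 UMIs (43.9 to 44.6), at 1826 CPM (1806 to 1847) against 509 in the rest, with median depths of 14222 and 12554 UMIs. DPP4 is a leading gene of the SHH-led E120 cluster, so the E120 values in part restate that cluster. At E60 and E90 the order was the opposite. Cells with a DPP4 UMI stood at 935 CPM (915 to 955) and 2624 CPM (2526 to 2725) of CXCL14, against 1416 and 3194 in the rest.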

How the data were processed

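Single cells of 3 pooled skin samples were measured by droplet 3-prime RNA sequencing. Reads were processed with Cell Ranger 3.0.2, per the submitters' processing notes; genome build, annotation and cell filters are not given in the sources used here. The deposited table holds, per gene and cell, the natural log of 1 plus the UMI count scaled by the authors to 10000 per cell. The design written for these data had assumed counts. Inverting the log and dividing by the smallest step in each cell gave whole UMIs for 100% of nonzero values (within 0.01), and these were summed. All 20676 cells were kept, where the design text states 19705.

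Cells were clustered on 2000 variable genes, without chemokine ligand and receptor genes, using 30 principal components, 20 neighbours and Leiden resolution 1 (Python 3.11.15 with igraph 0.11.9, leidenalg 0.10.2 and pandas 2.3.3; numpy 2.4.6; scipy 1.17.1 for intervals; matplotlib 3.10.9). Clusters were named from listed markers by a scoring rule set after the data were seen, with earlier versions set aside, so a name may differ from the study's. Doublets were called but kept: 4.61% of E60 and 1.6% of E120 cells; the caller did not work at E90, where it marked 0.0144%. The members and lists were chosen with earlier results of these data known. List genes are named where they reach 50 CPM in a library or in the cluster where a member is highest, and for each member the 5 genes with the highest Pearson correlation of log2(CPM + 1) over clusters of at least 30 cells were ranked, of which the text gives the leading ones. Of 12709 gene symbols 11897 matched RefSeq, and 4030 genes had none. With 1 library a stage no test was made. Alternatives were equal cell weights, another scaling, pseudocount, cell filter, doublet removal, resolutions, clustering with chemokines or per library, and thinning. The scripts were tested on simulated data.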

Additional observations from a re-analysis of the deposited data

How the results depend on the processing

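No paired analysis was possible because each stage has 1 library and the replicate numbers only name the samples. No log2 ratio changed its sign under any alternative run. Shares, levels in the highest cluster and at-least folds have no sign, so this does not speak for them. Over all these values 69 stayed within the counting interval of the main value and 81 moved beyond it. In the whole libraries the CXCL14 log2 ratio of E90 over E60 (1.24) was 1.14 with equal cell weights, 0.72 by median of ratios and 1.31 after a cell filter (1000 genes or more, 10% mitochondrial counts or less), and that of E120 over E90 (-2.09) was -1.35, -1.61 and -2.19. For CXCL10 the E90 over E60 ratio (3.34) was 2.84 by median of ratios, 2.44 with a pseudocount of 10 CPM and 3.62 after the filter, and E120 over E90 (-4.59) was -4.15, -2.92 and -4.84, and -3.82 with equal weights. The at-least fold of CCL11 was 340.2 by median of ratios and 103 after the filter for E90, and 693 after the filter for E120; equal weights and the pseudocount give no such bound.

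In dermal-like cells the CXCL14 ratio of E90 over E60 (1.16) was 1.18 with equal weights, 1.35 and 1.20 at resolutions 0.5 and 2, and 1.28 with chemokine genes kept; E120 over E90 (-0.78) was -0.42 with equal weights and -0.65 without doublets. The CXCL10 ratio of E90 over E60 there (1.47) was 0.71 with the pseudocount and 0.44 without the highest E90 cell, a setting chosen after seeing the data. In epithelial-like cells the CXCL14 ratio of E120 over E90 (-2.08) was -1.06 with equal weights, -1.91 and -2.54 at the lower and higher resolution and -2.47 with chemokine genes kept; that of CXCL10 (-6.04) was -5.35, -4.32, -5.08 and -5.04, and -4.13 with the pseudocount.

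Source shares moved most. At resolution 0.5, resolution 2, with chemokine genes kept and per library, the dermal-like share of E60 CXCL14 was 97.3%, 95.4%, 94.7% and 95% (94.7% without doublets). The epithelial-like share of E90 CXCL14 was 16.1%, 35.7%, 39.7% and 33.1%, that of E90 CXCL10 11.2%, 31.0%, 31.0% and 26.3%, and that of E120 CXCL14 90.6%, 53.1%, 62.1% and 81.3% (84.3% without doublets). For E120 CXCL10 it was 36.1% at resolution 2 and with chemokine genes kept, and 37.3% per library, against 61.9%. The dermal-like share of E60 CXCL10 (41.1%) was 30.2% without doublets. The cause was not tested.

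Cells with a UMI, thinned to 2000 and 1000 UMIs, were, for CXCL14, 61.6% and 49.0% of E60 cells, 96.6% and 88.0% of E90 cells, and 32.1% and 25.1% of E120 cells. For CCL11 at E60 they were 2.37% and 1.71%, and for CXCL10 0.686% and 0.394%, 5.94% and 3.75%, and 0.319% and 0.203% at the 3 stages. The filter gave 99.3% and 60.2% for CXCL14 at E90 and E120.

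Other settings for the highest cluster were chosen after seeing the data. Without its highest cell CXCL14 was 8609 CPM at E90 and 8900.5 at E120, and CXCL10 224 at E60 and 23.0 at E120. At resolution 2 CXCL14 at E120 was 14147 CPM, and CXCL10 was 78.5 at E60 and 53.7 at E120, in clusters that shared no cell with the main ones. CCL11 was 279.7 CPM at resolution 0.5 and 154 in cells with an SFRP1 UMI, and CXCL10 at E90 3134 in cells with an FGF20 UMI. CXCL10 at E120 rests on 244 UMIs, and the filter left 2756 of the 6931 E90 cells.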

Other observations

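A cluster of 28 cells at E120, under the size used for the levels by cluster, was led by SHH, DCN, VCAN and WIF1 and stayed unnamed. It held 60 of the 244 CXCL10 UMIs of that stage, at 131 CPM, in 4 cells, and stood at 60.3 CPM without its highest cell. The 71 E120 cells with a UMI of CXCL9, the neighbouring CXCR3 ligand, held 41.8% of CXCL10 UMIs (35.5 to 48.3), at 123 CPM (101 to 149.8) against 1.53 CPM in the rest. At E90 the 15 cells with a CXCL9 UMI (0.216% of cells) held 1.39% of CXCL10 UMIs (0.973 to 1.91). They stood at 542 CPM (379.6 to 750.2), on 36 UMIs in 5 cells, against 84.7 CPM in the rest.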
